A study of Arabidopsis thaliana with 18 samples.

Results

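The comparison described here asks in which genes of the Arabidopsis root the transcriptional response to cis-zeatin depended on the phosphate supply. It rests on 12 of the 18 RNA-seq libraries of the study, 3 in each of 4 groups of roots from Col-0 seedlings (ecotype Columbia, the wild type). The seedlings had grown for 8 days on Murashige and Skoog medium, a standard plant culture medium, with either 625 or 5 µM phosphate. Both phosphate levels were sampled untreated and after 8 h with 5 µM cis-zeatin. The 2 supplies are called full and low phosphate below. The sample labels call the low supply growth without phosphate, whereas the growth protocol gives 5 µM, and the labels name no solvent treatment for the untreated roots. The response to cis-zeatin in low phosphate minus the response in full phosphate is the interaction, given on the log2 scale with its standard error. Of 19982 genes with enough reads to be tested, 842 had an interaction with an adjusted p under 0.05, and these 842 genes are the subject.

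Zeatin is a cytokinin, a plant hormone derived from adenine. Its trans isomer is the more active form in most cytokinin assays, and its cis isomer, in which the double bond of the side chain has the other geometry, is abundant in many plants. Cytokinins are perceived by histidine kinase receptors, and the signal passes through phosphotransfer proteins to type-B response regulators, which activate target genes including the type-A response regulators. When phosphate runs short, the transcription factor PHR1 activates genes for phosphate uptake, for phosphatases that release phosphate from organic compounds, and for the replacement of membrane phospholipids by galactolipids and sulfolipids. Its activity is held back by SPX proteins when phosphate is ample. Cytokinins are known to lower the expression of many of these phosphate starvation genes.

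Library totals lay between 20839562 and 21871669 counts. The root label was checked on genes typical of roots. The beta-glucosidase gene PYK10, abundant in roots, was at 14500 to 34300 CPM (counts scaled to library size) in the 12 libraries. The root hair gene EXPA7 was at 29.0 to 119 CPM and the endodermis gene CASP1 at 94.3 to 349 CPM. The 13 photosynthesis genes tested, markers of shoot tissue, summed to 29.2 to 134 CPM in a library. Replicate 2 of the low phosphate group with cis-zeatin stood apart from its replicates. Its counts differed from theirs with a chi-square of 28.44 and 30.73 per degree of freedom. The other replicate pairs of the 4 groups had 2.736 to 11.93. Outside the 4 groups, replicate 2 of low phosphate with trans-zeatin had 13.63 and 20.68 against its own replicates, and it is part of the same fit. In the deposited sequencing report, the reads discarded for undetermined bases were 81544 to 85178 in libraries of untreated full phosphate roots and of those given trans-zeatin there. They were 22738 to 25354 in the libraries of full phosphate with cis-zeatin and of untreated low phosphate, with 1 library of low phosphate with trans-zeatin. They were 40794 to 58614 in low phosphate with cis-zeatin and the other trans-zeatin libraries there. Each of the 4 groups thus fell within 1 such set of libraries, and set and interaction cannot be told apart. The labels do not say whether replicates came from separate cultures, so p-values measure the spread between these libraries, which may be technical. In whole roots, fewer cells of a type and less RNA per cell cannot be told apart.

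The 842 genes were 4.21% of the genes tested. The interaction was above 0 in 315 of them (1.58%), meaning a response to cis-zeatin that was more positive or less negative in low phosphate, and below 0 in 527 (2.64%). At least 2-fold interactions were found in 252 genes (1.26%), 80 above 0 (0.4%) and 172 below 0 (0.861%). The responses themselves were more widespread: cis-zeatin changed 5237 genes in full phosphate (26.2%), of which 2537 rose (12.7%) and 2700 fell (13.5%). In low phosphate it changed 6233 genes (31.2%), of which 2613 rose (13.1%) and 3620 fell (18.1%). Low phosphate alone changed 8925 genes (44.7%), of which 4569 were higher (22.9%) and 4356 lower (21.8%). Under cis-zeatin the same comparison called 9824 genes (49.2%), 4948 higher (24.8%) and 4876 lower (24.4%). Without replicate 2 of the low phosphate group with cis-zeatin, 254 interactions above 0 and 499 below 0 were called. The count above 0 fell to 201 without replicate 2 of untreated full phosphate and to 189 without replicate 1 of full phosphate with cis-zeatin.

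The 527 genes with an interaction below 0 were mostly genes that cis-zeatin lowered when phosphate was scarce. In 212 of them (40.2%) expression fell with cis-zeatin in low phosphate and the response in full phosphate did not pass the threshold. A further 142 (26.9%) rose in full phosphate with no call in low phosphate, and 72 fell at both levels, more in low phosphate. Another 50 rose at both levels, more in full phosphate. In 46 genes (8.73%) the response changed direction, with a rise in full and a fall in low phosphate. In 5 genes neither response alone passed the threshold.

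Among the 315 genes with an interaction above 0, 97 (30.8%) rose with cis-zeatin in low phosphate with no call in full phosphate. A further 80 (25.4%) fell in full phosphate with no call in low phosphate. Of the rest, 61 rose at both levels, more in low phosphate, and 56 fell at both levels, more in full phosphate. In 20 genes (6.35%) the direction changed from a fall in full to a rise in low phosphate, and in 1 gene neither response passed. The range of response sizes that the 3 replicates allow in full phosphate did not overlap that in low phosphate in 809 of the 842 genes (96.1%), against 2151 of all genes tested (10.8%). These ranges come from the libraries that made the calls and were computed on log2(CPM + 0.1).

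**Figure D1:**
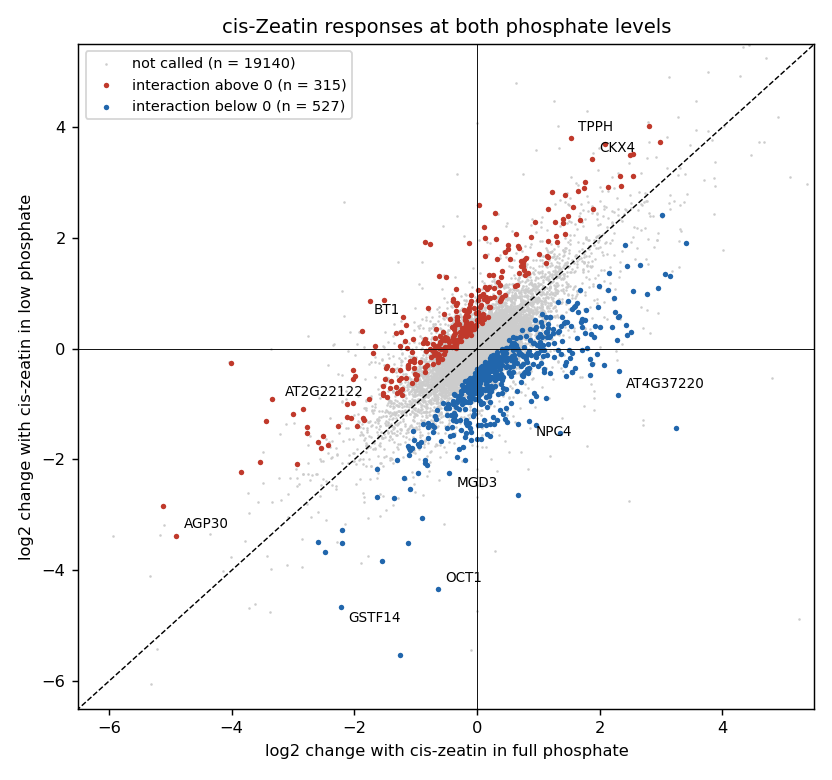
Each point is 1 gene, with its log2 change with cis-zeatin in full phosphate on the horizontal axis and in low phosphate on the vertical axis. The 315 genes called above 0 (red) lie above the dashed line of equal responses and the 527 called below 0 (blue) lie under it, and 24 genes, 3 of them called, lie outside the axes.

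The groups of genes most often called were those for lipid replacement and phosphate scavenging. The shares called were 78.6% and 66.7% of tested members, against 4.21% of all genes tested. Of 14 tested genes of membrane lipid remodelling, 11 had an interaction below 0 and none above 0, with a median of -0.98 against -0.008 for all genes tested. Of 15 tested genes of phosphate scavenging, 10 were below 0 and none above 0, with a median of -1.25. The median was -1.33 when each group at 0 counts was set to 3 counts over the group. That setting is an assumption. For genes at 0 in both full phosphate groups it makes the response there about 0. Low phosphate without hormone raised 12 of the 14 lipid genes and 15 of the 15 scavenging genes. Cis-zeatin lowered 13 of the 14 and 10 of the 15 in low phosphate, but 0 of the 14 and 2 of the 15 in full phosphate. It raised 2 of the 14 and 5 of the 15 in full phosphate, and 0 of the 14 and 1 of the 15 in low phosphate. Of all genes tested, cis-zeatin raised 12.7% and lowered 13.5% in full phosphate, and raised 13.1% and lowered 18.1% in low phosphate. Low phosphate without hormone raised 22.9% of all genes tested. PAP14, PAP23 and PAP25 of the scavenging list had 0 counts in both full phosphate groups, so no fall could be seen there. Of the 14 lipid genes, 2 were lower in full phosphate at an unadjusted p under 0.05 in edgeR, and another tool, limma-voom with quantile normalization, called 1, PAH2, a gene named after its values were seen. DESeq2 called 0. These lists were written with results of these libraries known, so the counts are a description. The lipid count stayed at 11 or 12 under every alternative processing and left-out library tried, and the scavenging count was 8 to 10.

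**Figure D2:**
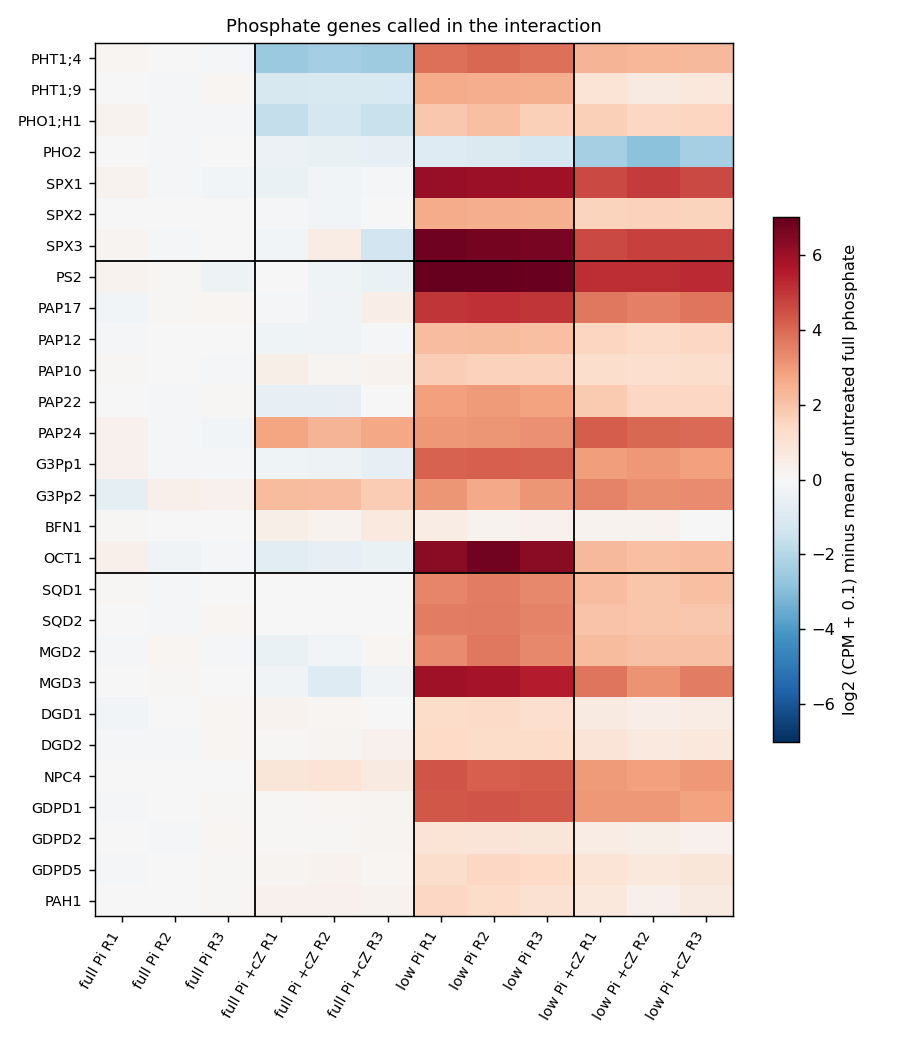
Each row is a gene of phosphate uptake and signalling (top), scavenging (middle) or lipid remodelling (bottom) called in the interaction, and each column is 1 library of the 4 groups. Colour gives log2(CPM + 0.1) minus the mean of untreated full phosphate: most rows are red in untreated low phosphate and paler in low phosphate with cis-zeatin, while the first 6 columns stay near 0 in most rows, with PHT1;4, PHO1;H1, PAP24 and G3Pp2 among the exceptions.

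Sulfolipid synthesis showed the pattern most plainly. SQD2, which makes the sulfolipid in its last step, was at 47.0, 45.7 and 52.6 CPM in untreated full phosphate and at 47.0, 49.4 and 49.0 CPM with cis-zeatin there. Low phosphate roots had 589, 608 and 547 CPM untreated and 196, 188 and 176 CPM with cis-zeatin. The full phosphate groups overlapped, whereas every treated library in low phosphate was below every untreated one and still above full phosphate. The interaction of SQD2 was -1.64 ± 0.13 (adjusted p = 3.12e-07). SQD1, which supplies the sulfur-bearing sugar nucleotide, behaved alike, at 162, 181 and 156 CPM in untreated low phosphate and at 67.9, 58.7 and 64.5 CPM with cis-zeatin, against 14.1 to 15.7 CPM in all full phosphate libraries. Its interaction was -1.40 ± 0.11 (adjusted p = 3.12e-07). UGP3, a plastid enzyme that makes UDP-glucose for sulfolipid synthesis, is in none of the lists and was picked after its values were seen. It went from 55.3, 60.6 and 50.1 CPM in untreated low phosphate to 24.6, 17.3 and 23.0 CPM with cis-zeatin, with an interaction of -1.62 ± 0.19 (adjusted p = 2.46e-05).

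The galactolipid synthases followed. MGD3, a monogalactosyldiacylglycerol synthase of phosphate-starved tissue, was at 1.65 to 1.77 CPM in untreated full phosphate and 0.878 to 1.43 CPM with cis-zeatin. In low phosphate it was at 108, 103 and 79.9 CPM untreated and at 24.0, 15.9 and 21.7 CPM with cis-zeatin. The low phosphate groups did not overlap, and the interaction was -1.79 ± 0.35 (adjusted p = 0.00385). MGD2 had an interaction of -1.22 ± 0.20 (adjusted p = 0.000759). The digalactosyldiacylglycerol synthases DGD1 and DGD2 had smaller interactions, -0.85 ± 0.13 (adjusted p = 0.000452) and -0.74 ± 0.12 (adjusted p = 0.000733).

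Phospholipid breakdown genes gave the largest interaction of the lipid list. NPC4, a phospholipase C that removes the head group of phospholipids, rose with cis-zeatin in full phosphate, from 10.2, 10.1 and 10.5 CPM to 18.7, 20.3 and 16.1 CPM. It fell in low phosphate, from 217, 186 and 193 CPM to 81.5, 75.5 and 83.7 CPM. Neither pair of groups overlapped, and the interaction was -2.15 ± 0.16 (adjusted p = 1.53e-07), made of a response of 0.84 ± 0.12 in full and -1.31 ± 0.10 in low phosphate. GDPD1, a glycerophosphodiester phosphodiesterase, was at 444, 447 and 415 CPM in untreated low phosphate and at 175, 179 and 151 CPM with cis-zeatin, while the full phosphate libraries ranged from 19.9 to 24.6 CPM. Its interaction was -1.51 ± 0.16 (adjusted p = 7.47e-06). GDPD5 (-0.70 ± 0.11, adjusted p = 0.000475) and GDPD2 (-0.61 ± 0.11, adjusted p = 0.00161) were called too. PAH1, a phosphatidate phosphatase, rose in full and fell in low phosphate, with an interaction of -0.97 ± 0.13 (adjusted p = 0.000134). The members not called were PLDZ2 (-0.99 ± 0.29, adjusted p = 0.0579), PLDZ1 (-0.18 ± 0.12, adjusted p = 0.433) and PAH2 (-0.16 ± 0.12, adjusted p = 0.482), and NPC5 had too few reads to be tested.

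Among the scavenging genes, OCT1, an organic cation and carnitine transporter, had the largest interaction of any gene above the median expression. It was at 204, 285 and 209 CPM in untreated low phosphate and at 12.2, 10.9 and 11.4 CPM with cis-zeatin. In full phosphate it was at 3.20, 2.09 and 2.33 CPM untreated and at 1.46, 1.66 and 1.81 CPM with cis-zeatin. The low phosphate groups were far apart, with the treated one still above full phosphate. The response was -4.34 ± 0.20 in low phosphate and -0.63 ± 0.36 in full phosphate, where it did not pass (adjusted p = 0.22), and the interaction was -3.71 ± 0.44 (adjusted p = 2.88e-05).

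PS2, a pyrophosphatase and phosphatase gene used as a starvation marker, was at 322, 370 and 309 CPM in untreated low phosphate and at 94.6, 92.8 and 98.8 CPM with cis-zeatin. It was at 1.76 to 3.02 CPM in all full phosphate libraries. Treated and untreated roots thus differed in low phosphate with no overlap and overlapped in full phosphate, and the interaction was -1.52 ± 0.27 (adjusted p = 0.00203). Among the purple acid phosphatases, which release phosphate from organic esters, PAP17 went from 276, 293 and 274 CPM to 113, 98.7 and 113 CPM in low phosphate. Its full phosphate libraries ranged from 7.07 to 11.7 CPM whether treated or not, and the interaction was -1.44 ± 0.19 (adjusted p = 7.89e-05). PAP10 rose in full and fell in low phosphate (-0.73 ± 0.11, adjusted p = 0.000497), and PAP12 fell at both, more in low phosphate (-0.50 ± 0.11, adjusted p = 0.00781). PAP22 also passed (-0.97 ± 0.27, adjusted p = 0.041), but not without replicate 2 of low phosphate with cis-zeatin (adjusted p = 0.0821), nor under 10 other alternatives.

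Not every called scavenging gene was lowered by cis-zeatin. PAP24 rose at both levels: from 0.767, 0.546 and 0.503 CPM to 4.56, 3.51 and 4.42 CPM in full phosphate, and from 5.62, 5.85 and 6.28 CPM to 13.1, 11.4 and 10.9 CPM in low phosphate. No treated library reached down to an untreated one at the same supply, and the interaction of -1.78 ± 0.28 (adjusted p = 0.000678) came from the larger rise in full phosphate. G3Pp2, a glycerol-3-phosphate permease that is also annotated as root hair specific, rose in full phosphate from 6.86, 13.3 and 12.8 CPM to 48.4, 47.7 and 36.6 CPM. In low phosphate it was at 90.6, 67.1 and 91.5 CPM untreated and 119, 101 and 105 CPM treated, a response that did not pass (adjusted p = 0.138), and the interaction was -1.62 ± 0.29 (adjusted p = 0.00217). Its relative G3Pp1 fell at both levels, more in low phosphate (-0.78 ± 0.17, adjusted p = 0.00848). BFN1, a nuclease, rose in full phosphate with an interaction of -0.62 ± 0.17 (adjusted p = 0.0426) that was lost under 10 alternatives. PAP14, PAP23 and PAP25 had 0 counts in both full phosphate groups, so their responses there could not be compared. PAP23 was at 10.6, 11 and 9.35 CPM in untreated low phosphate and at 4.48, 4.88 and 3.66 CPM with cis-zeatin. The other uncalled members were PECP1, a phosphatase gene at 276, 298 and 248 CPM against 65.5, 79.8 and 63.3 CPM in low phosphate but at 0.0455 to 0.316 CPM in full phosphate, and the ribonuclease gene RNS1 (-0.72 ± 0.28, adjusted p = 0.155).

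The uptake and signalling genes were split. Of 22 tested, 5 had an interaction below 0 and 2 above 0 (31.8% called, against 4.21% of all genes tested). The median was -0.13, or -0.16 with groups at 0 counts set to 3 counts over the group. The count below 0 was 3 without replicate 1 of untreated low phosphate, without replicate 1 or 2 of untreated full phosphate, or without replicate 1 or 2 of full phosphate with cis-zeatin. The SPX genes, whose proteins restrain PHR1, accounted for 3 of the 5. SPX1 was at 830, 768 and 731 CPM in untreated low phosphate and at 300, 363 and 292 CPM with cis-zeatin, against 8.69 to 14.4 CPM in all full phosphate libraries. Its interaction was -1.01 ± 0.19 (adjusted p = 0.00228). SPX2 went from 134, 132 and 126 CPM to 66.1, 69.2 and 66.8 CPM in low phosphate and stayed between 19.2 and 22.3 CPM in full phosphate (-0.83 ± 0.11, adjusted p = 7.96e-05). In both genes the treated and untreated groups overlapped in full phosphate only. SPX3 had 0.143 to 0.781 CPM in full phosphate and went from 68.6, 63.9 and 61.0 CPM to 14.8, 16.5 and 16.7 CPM in low phosphate. Its interaction of -1.82 ± 0.49 (adjusted p = 0.0362) was lost under limma-voom and without any of 6 libraries, replicates 1 to 3 of untreated full phosphate among them, with adjusted p up to 0.329.

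The remaining 2 below 0 were PHO2 and PHT1;9. PHO2, a ubiquitin-conjugating enzyme gene that limits phosphate transporters, was highest in untreated full phosphate at 323, 304 and 329 CPM and was at 241, 223 and 217 CPM with cis-zeatin. In low phosphate it was at 173, 156 and 134 CPM untreated and at 64.4, 43.3 and 63.0 CPM treated. It fell at both supplies with no overlap, and the interaction was -0.95 ± 0.19 (adjusted p = 0.00486). PHT1;9 fell at both, more in low phosphate (-0.69 ± 0.18, adjusted p = 0.0332), a call lost without any of 8 libraries, including replicate 2 of low phosphate with cis-zeatin (adjusted p = 0.0721).

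PHT1;4 and PHO1;H1 went the other way. PHT1;4, a high-affinity phosphate transporter, fell with cis-zeatin from 53.6, 47.7 and 43.0 CPM to 7.96, 9.08 and 8.36 CPM in full phosphate and from 693, 770 and 693 CPM to 251, 237 and 233 CPM in low phosphate. The groups did not overlap at either supply, and the fall was larger in full (-2.51 ± 0.10) than in low phosphate (-1.58 ± 0.09), with an interaction of 0.93 ± 0.13 (adjusted p = 0.000197). PHO1;H1, a relative of the phosphate exporter PHO1, fell from 30.3, 24.7 and 23.2 CPM to 8.11, 11.2 and 8.84 CPM in full phosphate and from 96.2, 110 and 83.5 CPM to 81.7, 72.2 and 74.0 CPM in low phosphate (1.13 ± 0.18, adjusted p = 0.000745). The other transporters tested, PHT1;1, PHT1;2, PHT1;3, PHT1;5, PHT1;7 and PHT1;8, were not called, and PHT1;3 and PHT1;7 had a group at 0 counts. PHT1;1 was at 1220, 1040 and 1160 CPM in untreated low phosphate against 779, 820 and 719 CPM with cis-zeatin, with an interaction of -0.12 ± 0.16 (adjusted p = 0.717). PHR1 itself was at 49.9 to 65.6 CPM in all 12 libraries (-0.08 ± 0.10, adjusted p = 0.725). The noncoding RNA gene IPS1, which relieves PHO2 from its microRNA, fell in low phosphate from 427, 406 and 396 CPM to 201, 228 and 220 CPM, with at most 0.637 CPM in full phosphate, and its interaction was not called (0.43 ± 0.67, adjusted p = 0.772).

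**Figure D3:**
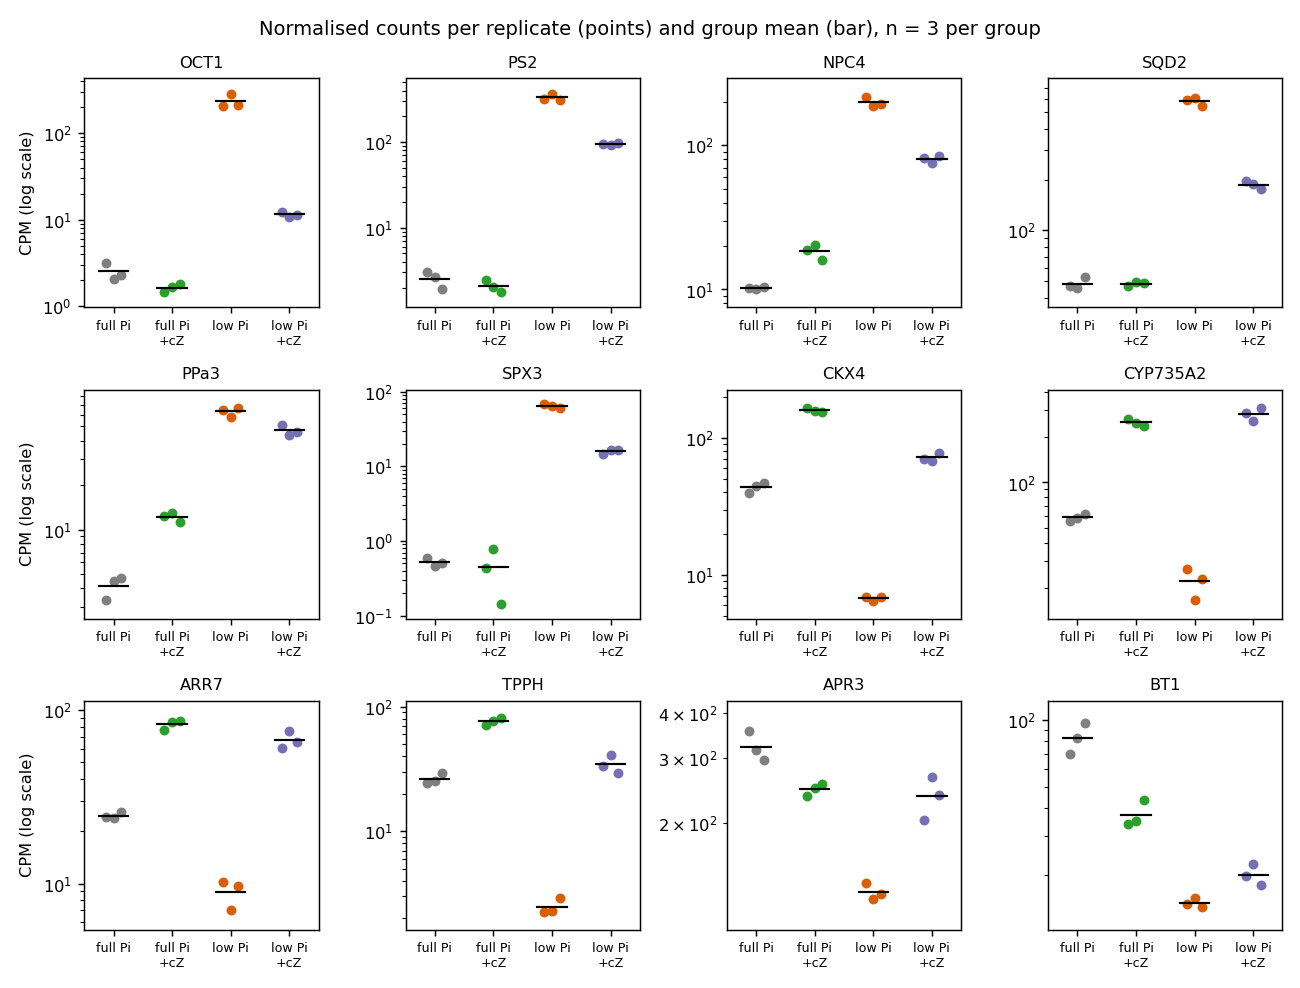
Normalised counts in CPM on a log axis for 12 genes, with 1 point per replicate and a bar at the group mean (n = 3). In the first 6 panels the 3 low phosphate points with cis-zeatin lie under the untreated ones. In CKX4, CYP735A2, ARR7, TPPH, APR3 and BT1 they lie above them.

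PHR1 binds a short palindromic element called P1BS, with the letters GNATATNC, so the promoters of called genes were searched for it in the 250 bases before the gene start of the RefSeq annotation of TAIR10.1. A match was present in 70 of 527 genes with an interaction below 0 (13.3%) and in 15 of 315 with one above 0 (4.76%). The share was 5.27% of all 38092 genes of the annotation, 5.5% of the tested genes and 7.29% of the 4568 genes that low phosphate raised without hormone and that have a promoter in the annotation. In the lipid list a match was present in 5 of the 11 called genes (45.5%) and 6 of all 15 (40.0%). In the scavenging list it was present in 2 of the 10 called (20%) and 6 of all 16 (37.5%), and in the uptake list in 1 of the 7 called (14.3%) and 4 of all 22. The element reads the same on both strands, so a match on 1 strand is a match on both. The 60-base windows of the matches that lie clear of other genes in the called phosphate lists are shown in the direction of the gene, with the element in capitals. The first base of the element lies 219 bases before the gene start in NPC4, 127 and 63 in GDPD1, 77 in PAH1, 153 in PAP24, 217 in PS2, and 213 and 90 in SPX3.
NPC4, chromosome 3: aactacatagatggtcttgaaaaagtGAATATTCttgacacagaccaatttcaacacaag
GDPD1, first, chromosome 3: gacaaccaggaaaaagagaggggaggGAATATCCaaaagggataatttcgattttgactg
GDPD1, second, chromosome 3: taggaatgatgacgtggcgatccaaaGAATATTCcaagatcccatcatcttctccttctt
PAH1, chromosome 3: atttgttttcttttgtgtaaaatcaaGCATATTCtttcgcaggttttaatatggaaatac
PAP24, chromosome 4: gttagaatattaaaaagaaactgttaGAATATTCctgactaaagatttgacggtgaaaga
PS2, chromosome 1: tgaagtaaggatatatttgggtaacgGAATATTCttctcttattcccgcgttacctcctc
SPX3, first, chromosome 2: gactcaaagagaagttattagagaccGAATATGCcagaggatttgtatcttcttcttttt
SPX3, second, chromosome 2: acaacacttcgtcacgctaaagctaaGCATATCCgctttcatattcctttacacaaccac

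The flanks differ from gene to gene and the capitals vary at the 2 free positions. These genes do not share a response: NPC4 and PAH1 rose in full and fell in low phosphate, GDPD1, PS2 and SPX3 fell in low phosphate only with no call in full, and PAP24 rose at both. A match is a description of letters and does not show binding. The sequence AGATCT, which type-B response regulators bind and which also reads the same on both strands, was present in 7.3% of genes with an interaction above 0 and 5.69% of those below 0. It was found in 5.62% of tested and 6.87% of all genes. Matches of both elements overlap or nearly touch in 2 promoters of the annotation.

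Of the 10 type-A response regulators, fast transcriptional targets that dampen cytokinin signalling, cis-zeatin raised 9 in full and 10 in low phosphate. It raised 12.7% and 13.1% of all genes tested. The interaction was called above 0 in 5, against 1.58% of all genes tested, and below 0 in none by edgeR (median 0.31). At an unadjusted p under 0.05, 2 were below 0, a share not counted over all genes tested. DESeq2 called 1 of them, ARR16, and it called 722 of all 19982 genes tested below 0. ARR7 had the largest interaction above 0 of the 10. It went from 24.3, 23.8 and 25.7 CPM to 76.4, 84.9 and 86.9 CPM in full phosphate. In low phosphate it went from 10.2, 7.06 and 9.72 CPM to 60.6, 76.1 and 65.7 CPM. Untreated low phosphate roots were well below untreated full phosphate roots, and the treated groups were close, with the low phosphate libraries just under the full phosphate ones. The response was 1.75 ± 0.10 in full and 2.91 ± 0.11 in low phosphate, and the interaction was 1.16 ± 0.14 (adjusted p = 5.53e-05).

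ARR6 showed the same shape, with 43.5, 41.8 and 46.6 CPM and 113, 118 and 124 CPM in full phosphate, and 28.2, 24.2 and 26.8 CPM and 104, 124 and 103 CPM in low phosphate (0.63 ± 0.12, adjusted p = 0.00217). The treated groups overlapped and the untreated ones did not. ARR5 (0.56 ± 0.15, adjusted p = 0.0418), ARR4 (0.43 ± 0.11, adjusted p = 0.0223) and ARR9 (0.39 ± 0.11, adjusted p = 0.0493) were close to the threshold. Without replicate 2 of low phosphate with cis-zeatin, ARR5 (adjusted p = 0.0856) and ARR9 (adjusted p = 0.0777) were lost. In all, ARR9 was lost under 14 alternatives, ARR5 under 9 and ARR4 under 5. Across the alternatives the number of type-A genes called above 0 was 2 to 5, and only ARR6 and ARR7 were called in each. It was 2 without replicate 2 of untreated low phosphate, without replicate 2 or 3 of untreated full phosphate, or without replicate 1 or 2 of full phosphate with cis-zeatin. ARR3, ARR8 and ARR15 had interactions of 0.16 to 0.23 that were not called. ARR16 and ARR17, with untreated levels up to 3.81 CPM, had interactions of -0.94 ± 0.28 (adjusted p = 0.0568) and -1.43 ± 0.59 (adjusted p = 0.19). ARR16 was called under DESeq2 (-0.96, adjusted p = 0.00765), median-of-ratios scaling (adjusted p = 0.0491) and no filter (adjusted p = 0.0359). It was also called without replicate 2 of low phosphate with cis-zeatin (-1.13, adjusted p = 0.00816), replicate 3 of untreated full phosphate (adjusted p = 0.0371) or replicate 1 of full phosphate with cis-zeatin (adjusted p = 0.0484). ARR17 was called without replicate 3 of untreated full phosphate alone (-3.42, adjusted p = 0.00943).

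Hormone turnover genes were among the largest positive interactions above the median expression. CYP735A2, a cytochrome P450 that makes trans-zeatin type cytokinins by hydroxylating the side chain, went from 55.9, 58.0 and 61.9 CPM to 264, 249 and 236 CPM in full phosphate. It went in low phosphate from 26.8, 16.7 and 22.8 CPM to 291, 257 and 310 CPM. The untreated groups were apart and the treated groups overlapped, with an interaction of 1.60 ± 0.16 (adjusted p = 4.02e-06). Its relative CYP735A1 had 0.66 ± 0.15 (adjusted p = 0.0151). CKX4, a cytokinin oxidase that degrades the hormone, went from 39.4, 44.3 and 47.2 CPM to 167, 157 and 154 CPM in full phosphate and from 6.87, 6.50 and 6.88 CPM to 70.4, 67.9 and 78.3 CPM in low phosphate. Here the treated low phosphate roots stayed below the treated full phosphate roots, and the interaction was 1.55 ± 0.16 (adjusted p = 5.85e-06).

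IPT3, an isopentenyltransferase of the first step of cytokinin synthesis, was the only called member of its list that fell in full phosphate with no call in low phosphate. It fell from 14.3, 15.2 and 14.9 CPM to 4.13, 5.12 and 4.75 CPM in full phosphate, and was at 6.97, 5.34 and 7.39 CPM untreated and 6.34, 6.43 and 7.6 CPM treated in low phosphate (1.71 ± 0.18, adjusted p = 7.39e-06). IPT7, of the same family, had 0 counts in all 3 low phosphate libraries with cis-zeatin, against 2.74, 2.46 and 2.79 CPM untreated. In full phosphate it went from 4.06, 4.19 and 3.66 CPM to 0.291, 0.244 and 0.095 CPM. Its interaction passed (adjusted p = 0.017), though not without replicate 1 of full phosphate with cis-zeatin (adjusted p = 0.0556), and no fold is given against a group at 0. In all, 3 of 15 tested synthesis genes were above 0 and 1 below (median -0.04), 26.7% called against 4.21% of all genes tested. Of 10 tested degradation and conjugation genes, CKX4 was above 0 and the glucosyltransferase gene UGT76C1 below (-0.61 ± 0.15, adjusted p = 0.0186). The latter was lost without replicate 3 of untreated low phosphate or replicate 1 of untreated full phosphate (highest adjusted p = 0.0547). Of 20 tested genes of perception and signalling, 1 was called, the type-B regulator ARR11, which fell from 28.8, 26.3 and 26.8 CPM to 19.5, 15.8 and 19.3 CPM in full phosphate. It fell in low phosphate from 14.2, 20 and 15.7 CPM to 5.53, 5.38 and 4.78 CPM (-1.08 ± 0.17, adjusted p = 0.000626).

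The largest positive interaction above the median expression belonged to TPPH, one of the trehalose-phosphate phosphatases, which dephosphorylate the sugar signal trehalose 6-phosphate. It went from 24.5, 25.4 and 29.1 CPM to 70.9, 77.0 and 81.2 CPM in full phosphate and from 2.23, 2.28 and 2.93 CPM to 33.4, 40.6 and 29.5 CPM in low phosphate. Untreated low phosphate was the lowest of the 4 groups in every library, and treated low phosphate was above untreated full phosphate. The response was 1.53 ± 0.11 in full and 3.80 ± 0.14 in low phosphate (interaction 2.26 ± 0.18, adjusted p = 3.12e-07). GSTL1, a lambda-class glutathione transferase, rose from 17.7, 15.1 and 16.0 CPM to 35.7, 39.2 and 33.9 CPM in full phosphate. The rise in low phosphate was from 8.69, 5.48 and 5.02 CPM to 32.2, 43.8 and 34.8 CPM (1.37 ± 0.24, adjusted p = 0.00178).

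Another set of large positive interactions came from genes that cis-zeatin lowered less in low phosphate. AT2G22122, which has no named function in the annotation, fell from 95.2, 85.9 and 83.1 CPM to 11.1, 12.8 and 13 CPM in full phosphate. It fell from 12.3, 12.1 and 14.8 CPM to 5.77, 7.34 and 5.33 CPM in low phosphate (1.76 ± 0.18, adjusted p = 4.11e-06). Cis-zeatin in full phosphate thus brought it to the range of untreated low phosphate. AGP30, an arabinogalactan protein of the root cell wall, fell from 173, 127 and 113 CPM to 4.81, 5.42 and 3.61 CPM in full phosphate and from 199, 356 and 206 CPM to 25.2, 23.6 and 24.5 CPM in low phosphate. Neither the treated nor the untreated groups overlapped between supplies, and the interaction was 1.53 ± 0.35 (adjusted p = 0.0124). The peroxidase gene Prx37 fell from 54.5, 56.1 and 54.2 CPM to 7.52, 8.88 and 7.70 CPM in full and from 97.7, 93.2 and 109 CPM to 37.1, 39.6 and 35.8 CPM in low phosphate (1.36 ± 0.16, adjusted p = 2.47e-05). AT4G11290, also of the peroxidase superfamily, fell from 114, 122 and 117 CPM to 42.5, 45.9 and 60.2 CPM in full phosphate. In low phosphate it was at 88.7, 77.9 and 90.8 CPM untreated and at 85.9, 87.1 and 94.3 CPM treated, with overlap (1.31 ± 0.15, adjusted p = 2.88e-05).

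On the negative side, several large interactions were rises with cis-zeatin in full phosphate alone. AT4G37220, of the cold acclimation WCOR413 family, rose from 0.677, 1.41 and 1.37 CPM to 6.21, 5.46 and 5.51 CPM in full phosphate. It was at 37.3, 29.4 and 41.0 CPM untreated and 27.6, 30.5 and 23.0 CPM treated in low phosphate, a response that did not pass (adjusted p = 0.0525), and the interaction was -2.72 ± 0.33 (adjusted p = 3.3e-05). AT4G25790, a cysteine-rich secretory protein gene, rose from 4.51, 9.83 and 8.23 CPM to 33.5, 37.6 and 24.1 CPM in full phosphate. It was at 96.9, 73.2 and 99.4 CPM and 79.2, 65.1 and 75.9 CPM in low phosphate, where the groups overlapped (-2.37 ± 0.31, adjusted p = 0.000101). GSTF14, a phi-class glutathione transferase, instead fell at both supplies and to very low levels in low phosphate. It went from 83.4, 92.6 and 112 CPM to 22.8, 21.6 and 17.5 CPM in full phosphate, and from 3.81, 3.48 and 4.93 CPM to 0.0953, 0.228 and 0.139 CPM in low phosphate (-2.44 ± 0.49, adjusted p = 0.00429). The treated value in low phosphate rests on few reads.

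Genes whose response changed direction with phosphate included both soluble pyrophosphatase genes called in the interaction, PPa3 and PPa4, of 6 such genes tested. Of all genes tested, 4.21% were called. PPa3 rose from 3.34, 4.51 and 4.71 CPM to 12.4, 13 and 11.2 CPM in full phosphate and fell from 64.8, 58.2 and 66.6 CPM to 50.9, 44.0 and 46.1 CPM in low phosphate. The groups were apart at both supplies (-1.97 ± 0.18, adjusted p = 1.11e-06). PPa4 rose from 40.7, 38.8 and 42.6 CPM to 64.0, 66.1 and 72.8 CPM and fell from 121, 137 and 121 CPM to 94.7, 91.1 and 87.0 CPM (-1.21 ± 0.11, adjusted p = 1.11e-06). PLL3, a protein phosphatase 2C relative, rose from 15.6, 17.4 and 17.7 CPM to 26, 24.5 and 20.1 CPM and fell from 106, 72.3 and 84.8 CPM to 37.1, 30.3 and 37.8 CPM (-1.80 ± 0.21, adjusted p = 2.88e-05). LCAT3, a lipid acyl hydrolase, rose slightly in full phosphate, from 20.3, 20 and 22.1 CPM to 23.3, 24.0 and 24.5 CPM, and fell in low phosphate from 47.7, 46.8 and 48.8 CPM to 25.9, 25.7 and 27.9 CPM (-1.05 ± 0.10, adjusted p = 1.56e-06). CYP78A8, a cytochrome P450, rose from 25.8, 24.5 and 27.2 CPM to 37.1, 38.7 and 37.6 CPM and fell from 19.4, 14.7 and 19.7 CPM to 8.05, 8.12 and 11.2 CPM (-1.52 ± 0.17, adjusted p = 1.33e-05). Unlike the other genes of this paragraph, CYP78A8 was lower in untreated low phosphate than in untreated full phosphate.

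In the reverse direction, from a fall in full to a rise in low phosphate, stood genes of sulfate reduction. APR3, which reduces activated sulfate, fell from 356, 316 and 297 CPM to 236, 249 and 256 CPM in full phosphate and rose from 137, 124 and 128 CPM to 203, 267 and 238 CPM in low phosphate. The 2 treated groups overlapped, whereas the untreated ones were apart, and the interaction was 1.25 ± 0.12 (adjusted p = 3.73e-06). APR2 fell from 35.9, 36.4 and 32.0 CPM to 27.8, 28.0 and 27.6 CPM and rose from 23.0, 21.9 and 24.2 CPM to 29.5, 30.6 and 35.8 CPM (0.80 ± 0.12, adjusted p = 0.000269). AT1G04770, a tetratricopeptide repeat protein gene of the sulfate list, rose in low phosphate with an interaction of 0.81 ± 0.15 (adjusted p = 0.00264). The other 12 of 15 tested sulfate genes were not called (20% called, against 4.21% of all genes tested), and the list median was -0.01. OPR1, an oxophytodienoate reductase gene, fell from 1040, 1010 and 961 CPM to 751, 749 and 857 CPM and rose from 751, 690 and 713 CPM to 973, 1070 and 853 CPM (0.78 ± 0.12, adjusted p = 0.000467). AT5G22140, an oxidoreductase gene, had an interaction of 1.13 ± 0.14 (adjusted p = 6.14e-05).

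Nitrate genes were called in both directions, 4 above and 3 below 0 of 25 tested, with a median of 0.21. That is 28% of the list, against 4.21% of all genes tested. BT1, a BTB and TAZ domain protein gene of the nitrate list, fell in full phosphate from 70.2, 83.0 and 96.6 CPM to 33.9, 34.9 and 43.4 CPM. It rose in low phosphate from 14.7, 15.7 and 14.3 CPM to 19.7, 22.4 and 17.9 CPM, with no overlap at either supply (1.58 ± 0.16, adjusted p = 5.85e-06). The assimilation genes NIR1 (0.50 ± 0.13, adjusted p = 0.0338), G6PD3 (0.58 ± 0.14, adjusted p = 0.0209) and RFNR1 (0.43 ± 0.12, adjusted p = 0.0386) fell in full phosphate, NIR1 also in low phosphate but less. These 3 calls were lost under 7, 4 and 9 alternatives. Without replicate 1 or without replicate 3 of untreated full phosphate, BT1 was the only nitrate gene above 0. Below 0 were NRT1.5, which loads nitrate into the xylem (-0.74 ± 0.14, adjusted p = 0.00309), and the myb-like transcription factor genes AT1G68670 (-0.76 ± 0.10, adjusted p = 7.7e-05) and AT1G25550 (-0.61 ± 0.12, adjusted p = 0.00327). NRT1.5 was at 1280, 1090 and 1170 CPM and 1330, 1180 and 1450 CPM in full phosphate, and went from 329, 388 and 353 CPM to 250, 247 and 219 CPM in low phosphate. It was lost under quantile normalization (adjusted p = 0.0529).

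Of 24 iron acquisition genes, 1 had an interaction above and 3 below 0 (16.7% called), and of 10 iron storage genes 1 was called in each direction (20%), against 4.21% of all genes tested. The list medians were -0.04 and 0.05. BHLH39, a regulator of iron uptake, was at 21.3 to 28.0 CPM in all full phosphate libraries and went from 8.83, 5.57 and 5.67 CPM to 1.67, 3.65 and 1.62 CPM in low phosphate (-1.34 ± 0.29, adjusted p = 0.00989). OPT3, an oligopeptide transporter that moves iron in the phloem, rose from 66.2, 65.8 and 59.9 CPM to 109, 111 and 104 CPM in full phosphate. It was at 43.8, 37.8 and 41.6 CPM and 42.2, 36.4 and 47.2 CPM in low phosphate (-0.73 ± 0.12, adjusted p = 0.000917). VTL1, a vacuolar iron transporter family gene, fell in full phosphate from 8.03, 4.23 and 4.25 CPM to 2.48, 2.24 and 2.28 CPM (1.54 ± 0.30, adjusted p = 0.00407). PYE (-0.52 ± 0.14, adjusted p = 0.0419), F6'H1 of coumarin synthesis (0.51 ± 0.13, adjusted p = 0.0252) and the ferritin gene FER1 (-0.57 ± 0.16, adjusted p = 0.0394) passed narrowly. PYE was lost under 10 alternatives, F6'H1 under 6 and FER1 under 9. Without replicate 2 of low phosphate with cis-zeatin, PYE (adjusted p = 0.0594) and FER1 (adjusted p = 0.0614) were not called.

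Of 22 root hair genes tested, 5 had an interaction below 0 and none above 0 in edgeR, and the median was -0.56. The shares of all genes tested were 2.64% below and 1.58% above 0. At an unadjusted p under 0.05, 2 of the 22 were above 0, a share not counted over all genes tested. DESeq2 and limma-voom called 0 of the 22 above 0. DESeq2 called 383 of all 19982 genes tested above 0. The count below 0 was 4 to 9 across the alternatives, and 4 without replicate 2 of low phosphate with cis-zeatin. Low phosphate alone raised 20 of the 22, against 22.9% of all genes tested. Cis-zeatin raised 12 and lowered 4 of the 22 in full phosphate, against 12.7% and 13.5% of all genes tested. It raised 3 and lowered 5 in low phosphate, against 13.1% and 18.1%. RHS19, a peroxidase gene of root hairs, rose from 68.3, 98.2 and 94.3 CPM to 186, 200 and 161 CPM in full phosphate, and was at 630, 528 and 681 CPM and 618, 535 and 525 CPM in low phosphate. The groups were apart in full and overlapped in low phosphate (-1.20 ± 0.24, adjusted p = 0.00418). XTH14, which remodels xyloglucan in the wall (-1.11 ± 0.23, adjusted p = 0.00714), RHS13 (-1.08 ± 0.24, adjusted p = 0.0123) and RHS12 (-0.93 ± 0.20, adjusted p = 0.0091) had the same shape. The summed level of the 22 genes was 789 to 925 CPM in untreated and 1540 to 2170 CPM in treated full phosphate roots. It was 3310 to 4070 CPM in untreated and 3540 to 5070 CPM in treated low phosphate roots, with the lowest treated value in replicate 2. Of 15 tested genes annotated as root hair specific, some of them in this list, 8 were below and 1 above 0. Without replicate 2 of low phosphate with cis-zeatin, 6 of these 15 were below and 1 above 0. This group of 15 was picked after its values were seen.

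The wall protein genes of this kind were uneven between replicates. EXT6, an extensin, was at 33.0, 38.1 and 45.8 CPM and 239, 312 and 114 CPM in full phosphate, and at 413, 363 and 474 CPM and 777, 118 and 638 CPM in low phosphate. The third treated replicate in full phosphate and the second in low phosphate were far below their partners. The interaction was -2.21 ± 0.61 (adjusted p = 0.0427) with all libraries and -1.74 (adjusted p = 0.0177) without replicate 2 of low phosphate with cis-zeatin. It was lost under 11 alternatives, DESeq2 and the robust fit among them. AT5G06630, an extensin-like gene, had 124, 176 and 64.7 CPM and 531, 132 and 397 CPM in the treated groups (-2.21 ± 0.54, adjusted p = 0.0209, and -1.81, adjusted p = 0.022, without that library). It was lost under 3 alternatives, the robust fit and leaving out replicate 1 of untreated full phosphate or replicate 2 of full phosphate with cis-zeatin. EXT10 (-1.81 ± 0.50, adjusted p = 0.043) and PRP3 (-1.18 ± 0.32, adjusted p = 0.0385) were not called without replicate 2 of low phosphate with cis-zeatin (adjusted p = 0.0654 and 0.0874). In all, EXT10 was lost under 10 alternatives and PRP3 under 9, the robust fit and each left-out replicate of untreated full phosphate among them. Extensin genes share repeated sequence, and how the authors counted reads that match several of them is not stated in these sources, so their single-gene values are uncertain. Of 38 tested genes with extensin in the annotated name, 3 were below and 1 above 0, or 2 below and 1 above without that library. The shares over all genes tested were 2.64% below and 1.58% above 0 with all libraries.

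The remaining lists held few calls. In the lists of this paragraph, 3.85% (cell division) to 11.1% (endodermis and glucosinolate) of tested members were called, against 4.21% of all genes tested. CASP5, which builds the Casparian strip, fell in full phosphate from 14.6, 15.9 and 14.7 CPM to 6.12, 6.83 and 8.88 CPM and was at 7.34 to 9.44 CPM in all low phosphate libraries (1.23 ± 0.22, adjusted p = 0.00222), the only call among 9 endodermis genes. TIP2;2, a tonoplast aquaporin, fell from 514, 478 and 484 CPM to 110, 96.9 and 114 CPM in full and from 240, 260 and 249 CPM to 23.4, 23.0 and 19.7 CPM in low phosphate (-1.30 ± 0.16, adjusted p = 6.36e-05). PIP2;4 was the other of 19 aquaporin genes called (0.64 ± 0.13, adjusted p = 0.00559). The ethylene receptor gene ETR2 (0.88 ± 0.13, adjusted p = 0.000232) and the ethylene synthesis gene ACO1 (0.49 ± 0.12, adjusted p = 0.018) fell in full phosphate, 2 of 21 ethylene genes. ACO1 was lost without replicate 3 of untreated low phosphate or replicate 1 of full phosphate with cis-zeatin (highest adjusted p = 0.0634). MYB28, a regulator of aliphatic glucosinolate synthesis, fell at both, more in low phosphate (-0.81 ± 0.14, adjusted p = 0.00112), 1 of 9 genes. CDKB2;2, a mitotic kinase gene, fell in low phosphate (-0.62 ± 0.12, adjusted p = 0.00486), 1 of 26 cell division genes. DIN10, a raffinose synthase family gene of the carbon starvation list, changed direction (0.64 ± 0.14, adjusted p = 0.0116), 1 of 11. The auxin genes GH3.5 and PIN7, 2 of 24, and the suberin gene FAR5, 1 of 13, were called below 0. They were not called without replicate 2 of low phosphate with cis-zeatin (adjusted p = 0.0656, 0.0795 and 0.0562). In all, GH3.5 was lost under 6 alternatives, PIN7 under 10 and FAR5 under 5.

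No gene was called by edgeR among 15 lignin, 8 flavonoid and 6 endoplasmic reticulum body genes, nor among the markers of photosynthesis (13 tested), xylem (10), root tip (7), heat shock (5), wounding and jasmonate (9), hypoxia (6) and the circadian clock (11). Of all genes tested, 4.21% were called. At an unadjusted p under 0.05, 19 of the 90 genes of these lists passed. That share was not counted over all genes tested, so it cannot be read as many or few. DESeq2 called 3 of the 90, VND6 (xylem), HRA1 (hypoxia) and PRR7 (clock), and limma-voom with quantile normalization called HRA1. These 3 are named after their values were seen. Of all 19982 genes tested, DESeq2 called 383 above and 722 below 0, and limma-voom with quantile normalization 362 and 468. The summed levels of these markers and of the endodermis markers differed between groups, and their part in the results was not tested. The heat shock genes summed to 146 to 153 CPM and 228 to 252 CPM in full phosphate, and to 123 to 182 CPM and 202 to 365 CPM in low phosphate, untreated and treated. The endodermis genes summed to 689 to 738 CPM and 426 to 511 CPM in full, and to 847 to 1050 CPM and 675 to 768 CPM in low phosphate. The xylem genes summed to 594 to 666 CPM and 750 to 856 CPM, and to 506 to 554 CPM and 643 to 694 CPM. Untreated and treated sums of the wounding genes were 232 to 325 CPM and 415 to 461 CPM in full, and 204 to 228 CPM and 291 to 307 CPM in low phosphate. The hypoxia genes had 97.6 to 105 CPM and 79.5 to 87.2 CPM, and 113 to 130 CPM and 84.6 to 87.5 CPM, in the same order. The root tip genes had 132 to 142 CPM and 89.6 to 101 CPM in full, and 128 to 150 CPM and 93.2 to 113 CPM in low phosphate. The photosynthesis genes had 79.3 to 134 CPM and 83.5 to 85.3 CPM in full, and 29.2 to 42.5 CPM and 30.7 to 34.4 CPM in low phosphate. The clock genes had 781 to 810 CPM and 791 to 821 CPM in full, and 566 to 616 CPM and 519 to 568 CPM in low phosphate. The median interaction also fell with transcript length, from 0.12 in the quartile of the shortest genes to 0.03, -0.02 and -0.12 in the longest, and its part was not tested beyond the fit with that trend removed.

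**Figure D4:**
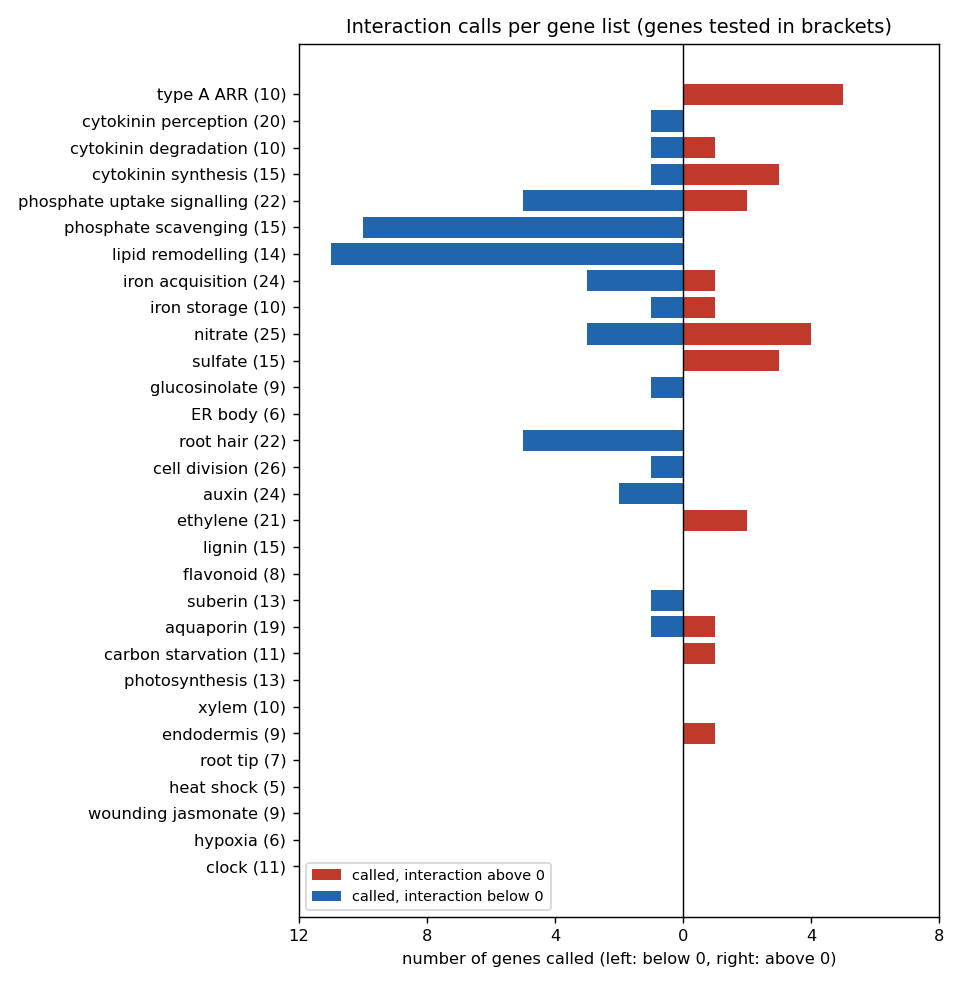
Number of genes called above 0 (red, to the right) and below 0 (blue, to the left) in the interaction for the 30 gene lists, with the number of genes tested in brackets. Lipid remodelling and phosphate scavenging have the longest bars, 11 of 14 and 10 of 15 genes, all below 0.

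Trans-zeatin was applied at the same dose and for the same time, so its interaction with phosphate could be set beside that of cis-zeatin. The untreated groups cancel in the difference of the 2 interactions, which compares the phosphate effect under the 2 isomers. This difference was called in 3666 of 19982 genes (18.3%), 1946 above 0 (9.74%) and 1720 below 0 (8.61%). The trans-zeatin interaction was called in 4085 genes (20.4%), 1854 above 0 (9.28%) and 2231 below 0 (11.2%). Of the 842 genes of the cis-zeatin interaction, 138 had a difference above 0 (16.4%) and 179 below 0 (21.3%). All trans-zeatin libraries in full phosphate were in another of the sets by discarded reads than those with cis-zeatin there, and in low phosphate 2 of 3 shared the set of cis-zeatin, so set and isomer difference cannot be told apart either. The 842 genes were chosen on libraries that the difference also uses, so these shares are a description, and so are the single-gene differences of the genes with the largest cis-zeatin interactions.

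Several of the largest interactions above the median expression did not differ between the isomers by the test. For TPPH the cis-zeatin interaction was 2.26 ± 0.18 and the trans-zeatin interaction 2.55 ± 0.18, with a difference of -0.29 (95% interval -0.608 to 0.0347, adjusted p = 0.185). For CKX4 they were 1.55 ± 0.16 and 1.60 ± 0.16 (difference -0.05, interval -0.362 to 0.262, adjusted p = 0.848), and for CYP735A2 1.60 ± 0.16 and 1.85 ± 0.16 (difference -0.25, interval -0.583 to 0.0796, adjusted p = 0.264). OCT1 had -3.71 ± 0.44 and -3.76 ± 0.54, with an interval of the difference of -1.11 to 1.22 that leaves room for a difference of 2-fold in either direction (adjusted p = 0.958). AGP30, Prx37, PLL3 and AT2G22122 were not called in the difference either, with the widest interval, -0.767 to 0.971, in AGP30.

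Other genes did differ. BT1 had an interaction of 1.58 ± 0.16 with cis-zeatin and 0.61 ± 0.16 with trans-zeatin (difference 0.96 ± 0.16, adjusted p = 0.000368). APR3 had 1.25 ± 0.12 and 0.80 ± 0.12 (difference 0.45 ± 0.12, adjusted p = 0.0138). NPC4 had -2.15 ± 0.16 and -1.27 ± 0.16 (difference -0.89 ± 0.16, adjusted p = 0.000795), and PPa3 -1.97 ± 0.18 and -0.88 ± 0.20 (difference -1.09 ± 0.18, adjusted p = 0.000477). The cis-zeatin interaction was the stronger in all 4. AT4G37220 went the other way, with -2.72 ± 0.33 under cis-zeatin and -5.36 ± 0.29 under trans-zeatin (difference 2.64 ± 0.24, adjusted p = 2.1e-06). GSTF14 had no called interaction with trans-zeatin, 0.40 ± 0.59 (adjusted p = 0.682), and differed by -2.85 ± 0.78 (adjusted p = 0.0147). In low phosphate it was at 0.0953 to 0.228 CPM with cis-zeatin and at 0.144, 0.0868 and 0.465 CPM with trans-zeatin. Its difference thus rests on few reads under both isomers there.

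For the phosphate genes, the difference between isomers was called in both directions, to be read against 16.4% above and 21.3% below 0 among the 842 genes. Of the 11 lipid genes of the cis-zeatin interaction, 4 had a difference above 0, meaning a weaker negative interaction with cis-zeatin, 1 a difference below 0, and 6 were not called. Of the 10 scavenging genes, 3 were above 0, 1 below and 6 not called. SQD2 (0.43 ± 0.13, adjusted p = 0.0227), SQD1 (0.50 ± 0.11, adjusted p = 0.004) and GDPD1 (0.99 ± 0.16, adjusted p = 0.000277) were among those above 0, and NPC4 was the one below. Of the 5 type-A response regulators, ARR9 alone was called (0.41 ± 0.11, adjusted p = 0.0134), and the interval for ARR7 was -0.404 to 0.17.

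**Figure D5:**
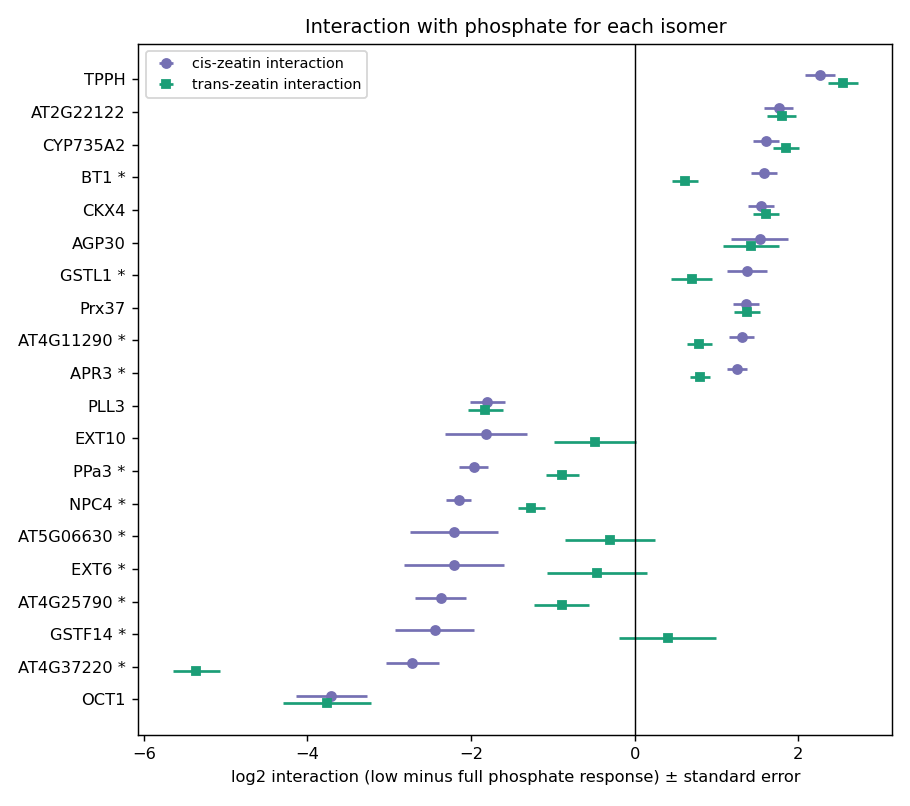
The log2 interaction with phosphate (response in low minus response in full phosphate) ± standard error for cis-zeatin (circles) and trans-zeatin (squares) in the 20 named genes with the largest cis-zeatin interactions. An asterisk marks an adjusted p under 0.05 for the difference between isomers: circles and squares coincide for OCT1, PLL3 and CKX4 and are far apart for AT4G37220 and GSTF14. The GSTF14 values rest on few reads in treated low phosphate roots.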

How the data were processed

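The deposited table of the authors holds read counts per gene for 18 libraries of polyadenylated root RNA. The tools named in the submitters' processing notes are edgeR, HTSeq, HISAT2, FastQC and CASAVA 1.4, with no order given; the genome build and strandedness are not given in the sources used here, so reads of overlapping genes on opposite strands cannot be told apart. The table's name speaks of normalized counts, but its values are whole numbers with unequal totals (20839562 to 21871669, or 88.66 to 91.02% of clean reads) and were analysed as raw counts. The authors deposited a sequencing report with read numbers per library, which was used only to describe the libraries.

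Of 37037 table entries, 24653 had reads and 19982 passed filterByExpr (minimum count 10). The 18 libraries were fitted together in edgeR 4.0.16 (R 4.3.3), with TMM scaling, a mean per group and glmQLFTest; p was adjusted by Benjamini-Hochberg over the 19982 genes, threshold 0.05. CPM values are scaled by TMM and are not per length, so levels of different genes are not compared. Standard errors derive from the F statistic, and 95% intervals from a t distribution on 12 residual degrees of freedom. The code was tested on simulated data. Alternatives were DESeq2 1.42.0, limma 3.58.1 (voom), other scalings and filters, the 12 libraries alone, a robust fit, a replicate block, removal of length and GC trends, and leaving out each library.

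Names, promoters, length and GC came from RefSeq TAIR10.1 (19945 of 19982 genes matched for length and GC). The genes named were, above the median expression, the 10 largest interactions of each sign and the 5 genes per sign with the smallest p among those that changed direction; the 10 type-A response regulators; up to 4 called members of each of 30 gene lists; and the largest of a list. Other called list members are given for completeness. The lists, and the genes as a whole, were chosen with earlier results of these data known.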

Additional observations from a re-analysis of the deposited data

Results flagged for a closer look

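The response to cis-zeatin differed between the phosphate supplies, by the test of the interaction itself, in 842 genes. The phosphate interaction differed between the isomers, by the test of that difference, in 3666 genes. The sets of libraries by discarded reads differ between the isomers in full phosphate, and set and difference cannot be told apart. Of the 20 named genes with the largest cis-zeatin interactions above the median expression, 11 were in the second set. The cis-zeatin minus trans-zeatin difference was 0.96 in BT1, 0.68 in GSTL1, 0.52 in AT4G11290, 0.45 in APR3 and 2.64 in AT4G37220, and -2.85 in GSTF14, -1.48 in AT4G25790, -1.75 in EXT6, -1.90 in AT5G06630, -0.89 in NPC4 and -1.09 in PPa3, on the log2 scale. EXT6 and AT5G06630 were low in replicate 2 of low phosphate with cis-zeatin, and the part of that library in their differences was not tested. The GSTF14 difference rests on few reads in low phosphate under both isomers.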

How the results depend on the processing

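The counts of 315 genes above and 527 below 0 were 383 and 722 with DESeq2, 296 and 563 with median-of-ratios scaling, 362 and 468 with quantile normalization, and 463 and 560 with length and GC trends removed. They were 275 and 561 on the 12 libraries alone, and 80 and 172 when a 2-fold change was also required. Leaving out 1 library gave 189 to 384 above and 372 to 589 below 0; 556 to 743 of the 842 genes stayed called, and none changed sign. Deviations of same-numbered libraries from their group means had r from -0.4467 to 0.287. With 3 replicates per group this cannot decide whether the numbers pair the samples, and the labels do not say. A fit with a replicate block gave 306 and 525. Of 91 named or listed genes called, 67 were called under all 22 settings and 24 were lost under at least 1, with no reversal; the cause of these losses was not tested. Depth limits genes such as PAP23 and IPT7, with groups at 0 counts.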

Other observations

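The genes in these paragraphs were picked after their values were seen and are given as values only. Trehalose-phosphate phosphatase genes were called in both directions: of 8 tested, TPPH, TPPJ (0.78) and TPPB (0.40) had interactions above 0 and TPPF (-1.06) and TPPI (-0.92) below 0. The shares over all genes tested were 1.58% above and 2.64% below 0. Without replicate 2 of low phosphate with cis-zeatin, TPPB was not called (adjusted p = 0.0645).

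A few other single genes follow, with no count over genes of their kind. CYP707A3, which breaks down abscisic acid, was at 43.4 to 58.2 CPM in all full phosphate libraries and fell in low phosphate from 23.2, 18.6 and 21.8 CPM to 8.48, 5.56 and 7.28 CPM (interaction -1.78 ± 0.19, adjusted p = 7.5e-06 in edgeR). LTI78, a gene of cold and drought, fell in low phosphate from 95.6, 88.0 and 90.7 CPM to 38.4, 44.5 and 45.1 CPM (-1.47 ± 0.21, adjusted p = 0.000227). KIN1, also a cold-responsive gene, rose in full phosphate from 20.5, 29.4 and 28.2 CPM to 106, 85.7 and 106 CPM (-1.52 ± 0.25, adjusted p = 0.000874). TDT, the vacuolar malate transporter, was at 55.2 to 69.4 CPM in all full phosphate libraries and rose in low phosphate from 15.6, 15.2 and 18.4 CPM to 34.8, 28.3 and 27.2 CPM (0.87 ± 0.18, adjusted p = 0.00557).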
